A study of Homo sapiens with 4 samples.

Results

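Genes for 10 feedback inhibitors of the ERK pathway were followed: the MAP kinase phosphatase genes DUSP1, DUSP2, DUSP4, DUSP5 and DUSP6, the Sprouty genes SPRY1, SPRY2 and SPRY4, and the Sprouty-related genes SPRED1 and SPRED2. They were chosen by name, with earlier results of these data known. All 10 were found by their Ensembl identifiers among the 64252 genes of the count table. Their transcripts were counted by RNA sequencing in cells labelled NB4, an acute promyelocytic leukemia line that carries the PML-RARa fusion. The treated group (2 libraries) received 8 μM dBET1 for 24 h. The control group (2 libraries) received the same volume of DMSO, the solvent, for 24 h. dBET1 is a PROTAC, a molecule that binds the BET family of bromodomain proteins and also CRBN, so that a ubiquitin ligase marks them for the proteasome. All libraries came from a single cell line, and the labels do not say whether the replicates were separate cultures. The paper states in general that experiments were done in triplicate and repeated, which does not match 2 libraries in a group. It was not taken to cover them, so the p-values measure only the spread between these libraries, which may be technical.

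The libraries held 28019956 to 34685645 counts, and 17971 genes passed the filter on low counts. The labelled cell type was checked against its markers. ELANE and CTSG, protease genes of the promyelocyte granule, had 0 counts in all 4 libraries, and 5 granule genes together (MPO, ELANE, AZU1, PRTN3 and CTSG) had 15 to 17 counts in DMSO and 25 to 55 with dBET1. Erythroid genes were abundant, as the fetal globin gene HBG2 had 2462 and 2982 CPM in DMSO and 1718 and 1760 CPM with dBET1, where CPM is a count scaled to the size of its normalized library. With dBET1, the erythroid transcription factor genes KLF1 (log2 fold change -2.19) and GATA1 (-0.50) and the globin genes HBG1 (-0.67) and HBG2 (-0.65) fell at an adjusted p under 0.05, and the receptor gene EPOR gave -0.35 (edgeR adjusted p = 0.0865). Of 3 tested monocyte markers, CD14 (1.23) and CSF1R (2.01) rose at an adjusted p under 0.05 and a log2 fold change above 1. Both had 18 counts or fewer in each DMSO library. LYZ fell (-0.70). The summed level of all 5 listed monocyte markers, with the untested FCN1 and VCAN, was 18.0 to 19.0 CPM in DMSO. With dBET1 this sum was 12.5 to 13.3 CPM. Of the lymphoid genes, CD3D fell (-1.46), with 27.93 and 31.96 CPM in DMSO and 11.05 and 10.63 CPM with dBET1, while CD79A (0.62) did not pass the test. The granule markers of the labelled line were therefore near 0, while KLF1, GATA1, HBG1 and HBG2 were expressed and fell with dBET1. The part of these markers in the results below was not tested. In bulk RNA, a change in the share of cells of some kind and a change of RNA within each cell cannot be told apart.

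ERK, the last kinase of the RAS-RAF-MEK-ERK cascade, switches on the genes of its own inhibitors, and these then dampen the cascade. The DUSP proteins described here remove phosphate from both the threonine and the tyrosine of active MAP kinases. DUSP1, DUSP2, DUSP4 and DUSP5 act in the nucleus and DUSP6 acts in the cytoplasm, where it is selective for ERK. Sprouty and SPRED proteins act higher up, between receptor tyrosine kinases and RAF, and SPRED proteins bring the RAS GTPase-activating protein neurofibromin to the membrane. In blood cells this cascade carries signals of cytokine receptors and of oncogenic kinases, and the level of these transcripts is often read as a sign of how active it has been.

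Promoters of DUSP1, which rose, SPRY1, which fell, and DUSP6, which stayed near 0, are shown, a single gene of each kind picked from the results below. Whether their sequences bear on these differences was not tested. The promoters are RefSeq sequences of GRCh38.p14, each with 250 bases before and 50 after an annotated start, read 5′ to 3′ on the gene's strand. RefSeq entries matched 8 of the 10 members (not DUSP4 or DUSP5), with 12 promoters in all. Capitals mark matches on either strand to TGACGTCA (cAMP response element), TGANTCA (wider than the AP-1 site, N being any base) or CCGGAA (ETS core). They also mark TATAAA (a core promoter box), CACGTG (E-box) and the CArG box of serum response elements. The GC box GGGCGG was also searched and is left in lower case. The DUSP1 promoter lies at chr5:172771146-172771445 (reverse strand), that of DUSP6 at chr12:89352452-89352751 (reverse strand), and those of SPRY1 at chr4:123396545-123396844 and chr4:123398136-123398435 (forward strand).
DUSP1: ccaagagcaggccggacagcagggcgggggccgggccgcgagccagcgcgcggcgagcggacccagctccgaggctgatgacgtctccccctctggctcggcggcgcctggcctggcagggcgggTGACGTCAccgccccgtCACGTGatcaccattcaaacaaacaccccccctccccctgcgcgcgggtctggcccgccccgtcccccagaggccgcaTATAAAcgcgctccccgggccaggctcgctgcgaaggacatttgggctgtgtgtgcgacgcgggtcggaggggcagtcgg
DUSP6: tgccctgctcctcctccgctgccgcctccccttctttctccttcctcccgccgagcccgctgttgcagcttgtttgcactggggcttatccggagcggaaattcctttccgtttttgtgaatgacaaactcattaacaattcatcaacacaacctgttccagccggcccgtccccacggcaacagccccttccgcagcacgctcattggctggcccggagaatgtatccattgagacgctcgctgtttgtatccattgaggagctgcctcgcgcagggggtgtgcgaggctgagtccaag
SPRY1 first start: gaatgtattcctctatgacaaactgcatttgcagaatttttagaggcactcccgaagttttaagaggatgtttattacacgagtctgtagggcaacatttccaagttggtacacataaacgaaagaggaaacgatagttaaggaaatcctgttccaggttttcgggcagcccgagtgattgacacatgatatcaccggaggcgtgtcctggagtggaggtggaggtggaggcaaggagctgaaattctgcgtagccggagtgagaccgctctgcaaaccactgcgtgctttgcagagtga
SPRY1 second start: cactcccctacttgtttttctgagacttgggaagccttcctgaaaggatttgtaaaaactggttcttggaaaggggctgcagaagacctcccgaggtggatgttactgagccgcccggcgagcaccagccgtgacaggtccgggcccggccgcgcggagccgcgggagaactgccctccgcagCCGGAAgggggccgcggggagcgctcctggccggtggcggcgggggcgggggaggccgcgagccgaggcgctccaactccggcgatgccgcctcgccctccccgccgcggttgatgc

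The DUSP1 promoter held TGACGTCA at position -125, CACGTG at -108 and TATAAA at -30, counted from the annotated start and giving the leftmost base of each match. TGACGTCA was in 1.85% of 35116 promoters of the same length, CACGTG in 7.26% and TATAAA in 11.5%. Among the members, TGACGTCA was found in DUSP1 alone, and CACGTG in DUSP1 and DUSP2. TATAAA was found in DUSP1 and in the second start of SPRED2, which also held both matches to TGANTCA (7.71% of all promoters). CCGGAA (17.2% of all promoters) was found in the second start of SPRY1, at -67, and in the first start of SPRY2. GGGCGG was found in 8 of the 12 member promoters and in 45.0% of all promoters. The DUSP6 promoter held none of the 7 motifs. No member promoter held a CArG box, which was in 1.29% of all promoters. These are matches of letters in a window and not measured binding sites.

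The first question was whether the feedback inhibitor transcripts changed with dBET1. DUSP1 and DUSP5 rose, SPRY1 fell, and SPRY2, SPRY4, SPRED1 and SPRED2 did not pass the test. DUSP2, DUSP4 and DUSP6 were too low to be tested. At an adjusted p under 0.05 in edgeR's quasi-likelihood test, 2 of the 7 tested members were higher and 1 was lower, against 28.0% of all tested genes higher and 27.6% lower. With total counts only, without scaling factors, all tested genes split into 6703 higher and 3573 lower, where the fit above gave 5038 and 4953. With the study's second limit, an absolute log2 fold change above 1, 0 members were higher and 1 was lower, against 16.9% and 8.54% of all tested genes. At an unadjusted p under 0.05, edgeR gave 2 higher and 2 lower members, the added gene being SPRY2, against 31.3% and 29.7% of all tested genes. DESeq2 had 1 member higher (DUSP1) and 0 lower at an adjusted p under 0.05, against 22.1% and 26.1%. The median log2 fold change was -0.10 over the 7 tested members and 0.048 over all tested genes. With 7 tested members these counts lay near or under the background, so the differences below are those of single genes.

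**Figure D1:**
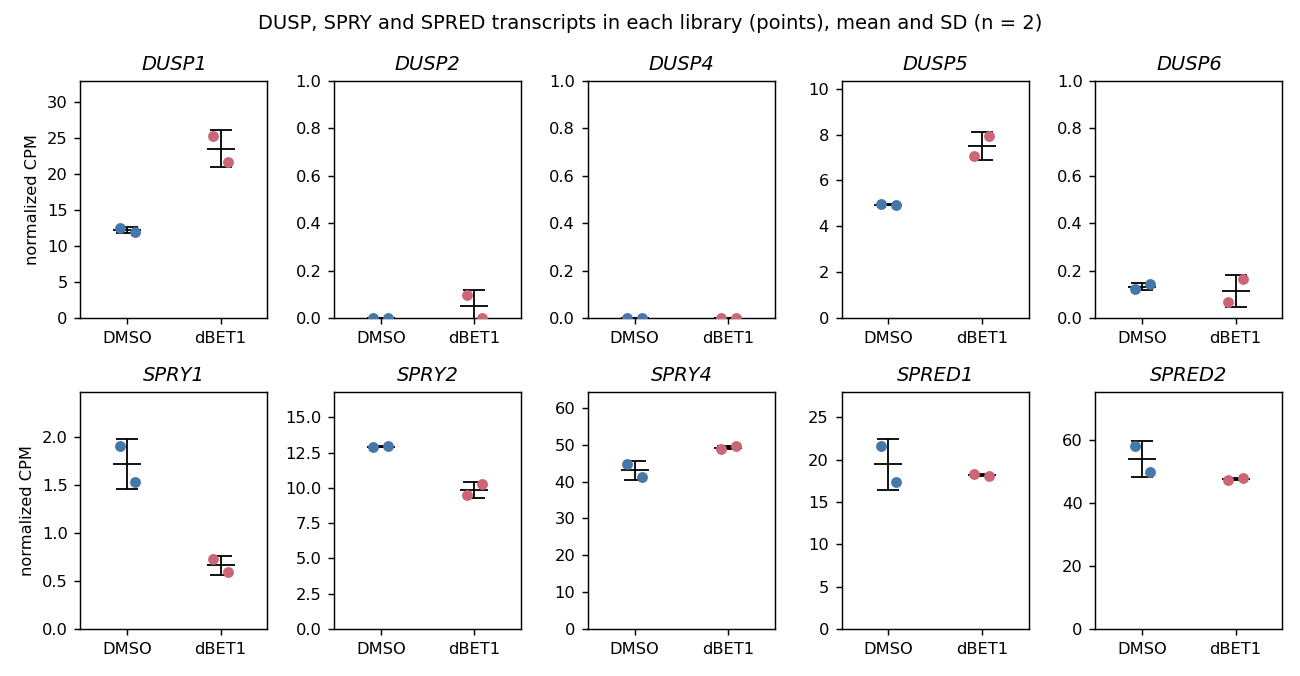
Normalized CPM of each of the 10 genes (vertical axis, a scale of its own in each panel, from 0) in the DMSO and dBET1 libraries. Points are libraries, and the bars give the mean and SD (n = 2). DUSP1, DUSP5 and SPRY4 lie higher with dBET1 in both libraries, and SPRY1, SPRY2 and SPRED2 lie lower. Of these, only DUSP1, DUSP5 and SPRY1 had an edgeR adjusted p under 0.05. How many of all genes lie apart in this way was not counted. DUSP2, DUSP4 and DUSP6 lie at or near 0.

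DUSP1 encodes a nuclear phosphatase that acts on p38, JNK and ERK and is an immediate early gene (hg38 chromosome 5, 172768096 to 172771195, reverse strand). It had 407 and 335 counts in DMSO and 760 and 663 with dBET1. In CPM these were 12.5 and 11.9 against 25.3 and 21.7, so that the lower dBET1 library lay above the higher DMSO library. Groups of 2 that do not overlap, here and below, have a two-sided p of 0.333 in an exact permutation test. The share of all genes without overlap was not counted, so a lack of overlap is not read here as a result about the members. The mean of DUSP1 rose from 12.2 ± 0.390 to 23.5 ± 2.54 CPM (SD, n = 2). The log2 fold change was 0.95 (standard error, SE, of 0.138, 95% confidence interval 0.63 to 1.27, edgeR adjusted p = 0.000837), a ratio of 1.93. The adjusted p stayed under 0.05 under the 7 alternatives that used all libraries. It did so with each library left out too, but there 1 group is a single library that is assumed to vary like the pair of the other group, here and for every value below with a library left out. The log2 fold change passed 1 under 3 of the 11 alternatives, at 1.16 with total counts only, 1.02 with at least 10 counts in every sample and 1.04 without dBET1 replicate 2.

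DUSP5, a nuclear phosphatase selective for ERK (chromosome 10, 110497907 to 110511533, forward strand), had 162 and 139 counts in DMSO and 213 and 243 with dBET1. Its mean level went from 4.95 ± 0.0131 CPM to 7.52 ± 0.610 CPM (SD, n = 2), and the groups did not overlap. The log2 fold change was 0.60 (SE 0.193, 95% confidence interval 0.16 to 1.05, edgeR adjusted p = 0.0296). This call was lost with DESeq2 (0.59, adjusted p = 0.0738), with no low-count filter (0.55, adjusted p = 0.0770) and when any single library was left out (0.50 to 0.68, adjusted p = 0.0524 to 0.188).

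The other DUSP members were close to absent. DUSP2, an inducible nuclear phosphatase of blood cells (chromosome 2, 96143169 to 96145440, reverse strand), had 0 and 0 counts in DMSO and 3 and 0 with dBET1. DUSP4, a nuclear phosphatase related to DUSP1 (chromosome 8, 29333064 to 29350684, reverse strand), had 0 counts in all 4 libraries. A count of 0 allows up to 3 counts, or 0.0919 to 0.107 CPM in these libraries, counting error only. DUSP6, the cytoplasmic ERK phosphatase and a common readout of the pathway (chromosome 12, 89347235 to 89352501, reverse strand), had 4 and 4 counts in DMSO and 2 and 5 with dBET1. All 3 genes failed the low-count filter, and with no filter DUSP6 had a log2 fold change of -0.24 (SE 0.810, edgeR adjusted p = 0.857). A difference was not detectable for them at this depth. The exons of DUSP6 share 1105 bases with a long non-coding gene on the opposite strand, and the strand setting of the counting is not given in the sources used here, so their reads cannot be told apart. That gene had 0 to 4 counts.

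SPRY1 was the only member past both thresholds. It encodes a Sprouty protein that restrains RAS activation downstream of growth factor receptors (chromosome 4, 123396795 to 123403760, forward strand). It had 62 and 43 counts in DMSO and 22 and 18 with dBET1, and the groups did not overlap. It fell from 1.71 ± 0.261 to 0.660 ± 0.101 CPM (SD, n = 2). The log2 fold change was -1.37 (SE 0.357, 95% confidence interval -2.20 to -0.55, edgeR adjusted p = 0.0127), or 2.59-fold lower. The call was lost with DESeq2 (-1.39, adjusted p = 0.0589) and without dBET1 replicate 2 (-1.24, adjusted p = 0.0786).

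SPRY2 and SPRY4 did not pass the test. SPRY2, a further Sprouty inhibitor of RAS signalling (chromosome 13, 80335976 to 80341126, reverse strand), had 12.9 and 12.9 CPM in DMSO and 9.48 and 10.3 CPM with dBET1. Both dBET1 libraries were lower, but the log2 fold change of -0.39 (SE 0.151, 95% confidence interval -0.74 to -0.03) had an adjusted p of 0.0607 from edgeR. SPRY4, which can also bind RAF (chromosome 5, 142310427 to 142326455, reverse strand), had 44.9 and 41.3 CPM in DMSO and 48.9 and 49.6 CPM with dBET1. Its log2 fold change was 0.19 (SE 0.0916, 95% confidence interval -0.02 to 0.41, edgeR adjusted p = 0.107). The groups did not overlap, and it was called higher with total counts only (0.40), with at least 10 counts in every sample (0.26) and without DMSO replicate 1 (0.23). The gene SPRY4-AS1 on the opposite strand spans part of SPRY4 and had 4 and 10 counts in DMSO and 31 and 19 with dBET1, with 0 shared exon bases.

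The SPRED genes, whose products carry neurofibromin to RAS, did not pass the test either. SPRED1 (chromosome 15, 38252836 to 38357249, forward strand) had 21.6 and 17.3 CPM in DMSO and 18.3 and 18.1 CPM with dBET1, so both dBET1 libraries lay between the DMSO libraries. Its log2 fold change of -0.10 (SE 0.144, 95% confidence interval -0.43 to 0.24, edgeR adjusted p = 0.595) turned positive with total counts only (0.11) and without DMSO replicate 1 (0.044). SPRED2 (chromosome 2, 65310851 to 65432637, reverse strand) had 58.1 and 50.1 CPM in DMSO and 47.5 and 47.9 CPM with dBET1, both lower. Its log2 fold change of -0.18 (SE 0.101, 95% confidence interval -0.41 to 0.05, edgeR adjusted p = 0.163) had an adjusted p of 0.00796 without DMSO replicate 2 (-0.31), where the spread came from the close dBET1 pair alone, and turned to 0.029 with total counts only. The intervals of SPRY2, SPRY4, SPRED1 and SPRED2 all held sizes under 1 on the log2 scale.

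**Figure D2:**
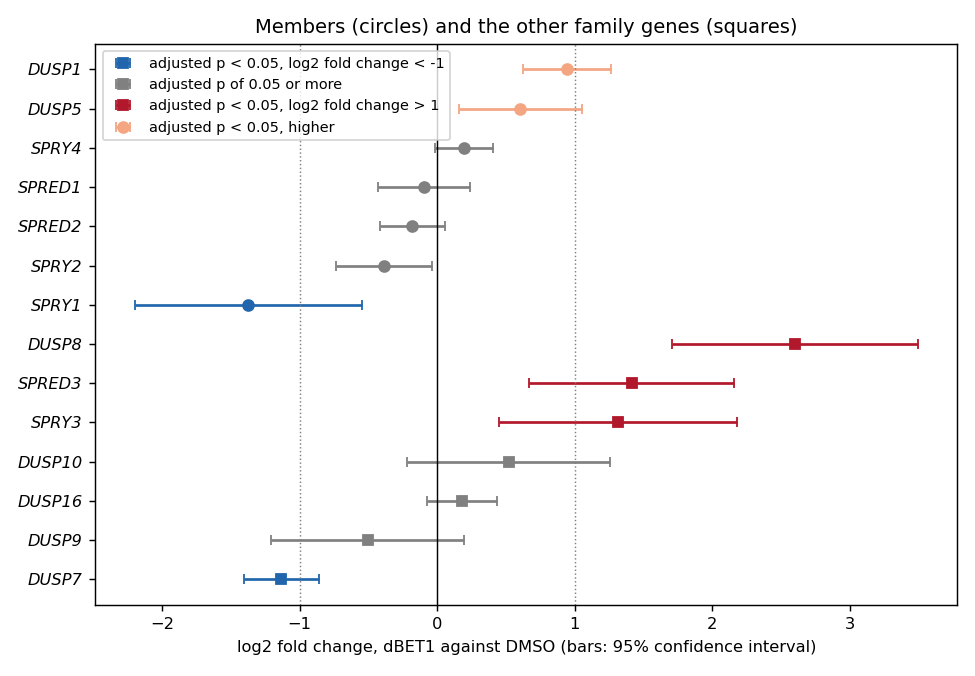
Log2 fold change of dBET1 against DMSO (horizontal axis) with its 95% confidence interval for the 7 tested members (circles) and the other 7 family genes (squares). DUSP1 and DUSP5 lie above 0 and SPRY1 below -1, while DUSP8, SPRED3 and SPRY3 lie above 1 and DUSP7 below -1.

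Levels of different genes were compared per length, as CPM per kb of annotated exon. In DMSO the order was SPRED2 (9.82), SPRY4 (6.57), DUSP1 (6.05), SPRY2 (4.02), SPRED1 (2.51), DUSP5 (1.95) and SPRY1 (0.432), and the values of neighbours did not overlap between libraries. With dBET1 the order was DUSP1 (11.7), SPRED2 (8.67), SPRY4 (7.51), SPRY2 (3.07), DUSP5 (2.97), SPRED1 (2.35) and SPRY1 (0.167), where SPRY2 (2.95 and 3.20) and DUSP5 (2.80 and 3.14) overlapped. DUSP1 therefore went from place 3 to place 1. The 5 DUSP members summed to 8.18 and 7.90 CPM per kb in DMSO and to 15.4 and 14.0 with dBET1. The 5 SPRY and SPRED members summed to 24.67 and 22.04 in DMSO and to 21.59 and 21.94 with dBET1. DUSP1 alone made up 18.8% and 19.8% of the summed level of all 10 in DMSO and 33.9% and 30.0% with dBET1. An exact permutation test of 2 libraries against 2 cannot go below a two-sided p of 0.333, so these sums are given without a test.

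**Figure D3:**
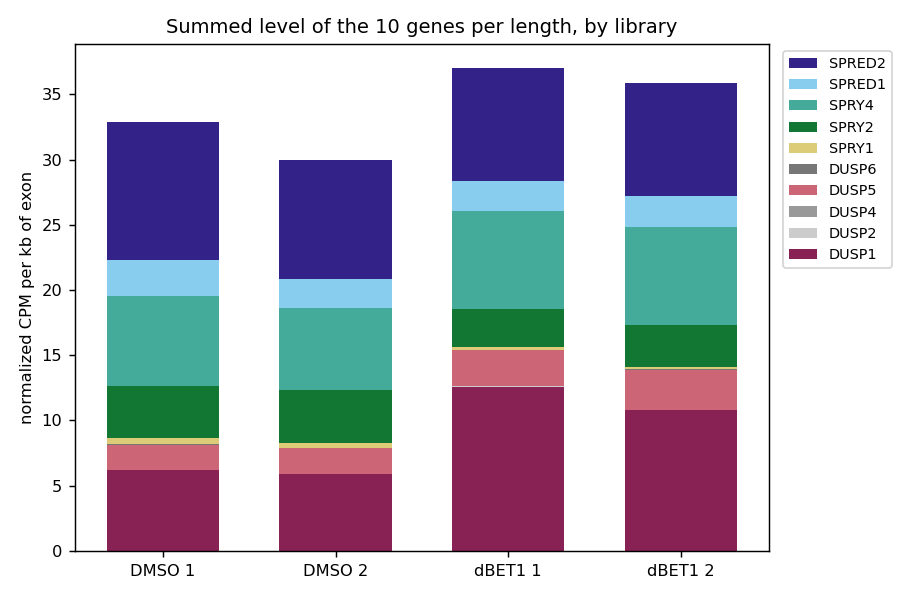
Level of each of the 10 genes in normalized CPM per kb of exon (vertical axis), stacked for each library (horizontal axis). The DUSP1 part grows from 6.19 and 5.92 in DMSO to 12.6 and 10.8 with dBET1, and DUSP2, DUSP4 and DUSP6 are too small to see.

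The rest of the family was measured in the same fit. Of the 7 other MAP kinase phosphatase and Sprouty family genes, all tested, 3 were higher and 1 was lower past both thresholds. Over all tested genes, these shares were 16.9% and 8.54%. DUSP7, a cytoplasmic ERK phosphatase closely related to DUSP6, fell from 28.6 ± 0.826 to 13.0 ± 0.179 CPM (SD, n = 2), a log2 fold change of -1.13 (SE 0.118, edgeR adjusted p = 0.000158). DUSP8, a phosphatase of JNK and p38, had 11 and 8 counts in DMSO and 62 and 54 with dBET1, a log2 fold change of 2.60 (SE 0.385, edgeR adjusted p = 0.000906). SPRED3 had 33 and 21 counts in DMSO and 69 and 74 with dBET1, a log2 fold change of 1.42. SPRY3 had 22 and 14 counts in DMSO and 45 and 44 with dBET1, a log2 fold change of 1.31. The SPRY3 call was lost with DESeq2 (1.31, adjusted p = 0.101) and without DMSO replicate 2 (1.09), dBET1 replicate 1 (1.28) or dBET1 replicate 2 (1.33), and DUSP8 was not tested with at least 10 counts in every sample. Per kb of exon, the 3 genes that rose had 0.0555 to 0.150 CPM in DMSO, while DUSP7, the highest of the 7, had 5.04. DUSP9 (-0.51), DUSP10 (0.52) and DUSP16 (0.18), which act on ERK in the first case and on JNK and p38 in the others, had adjusted p of 0.189 to 0.197 from edgeR. Of the cytoplasmic ERK phosphatases, DUSP7 had 2.30 CPM per kb with dBET1, DUSP9 had 0.973, and DUSP6 had 0.0172 and 0.0424 in its 2 libraries.

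The cascade above and around these inhibitors was described with gene lists. Over all tested genes, 28.0% were higher and 27.6% lower at an adjusted p under 0.05, the background for each list below. No list was tested as a set. Of 17 tested genes of RAS input, 2 were higher and 7 lower at an adjusted p under 0.05, none past both thresholds, with a median log2 fold change of 0.030, and with total counts only the split was 5 higher and 3 lower. PTPN11, the phosphatase SHP2 that opens the path to RAS, fell by 0.58 on the log2 scale, the adaptor gene SHC1 by 0.42, RRAS2 by 0.50 and HRAS by 0.76. Of 15 tested genes of the RAF, MEK and ERK kinases and their scaffolds, 2 were higher and 6 lower, with a median of -0.047, and with total counts only 4 were higher and 4 lower. The scaffold gene CNKSR1 fell from 59 and 82 to 6 and 11 counts, a log2 fold change of -3.05, and was the only gene of this list past both thresholds. The scaffold KSR1 (-0.56), MAP2K1, which encodes MEK1 (-0.51), and the atypical kinase gene MAPK6 (-0.64) fell, and the scaffold IQGAP1 rose (0.76).

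Of 14 tested other brakes on RAS and ERK, 4 were higher and 5 lower, against 28.0% and 27.6% of all tested genes. Their median was -0.070, and with total counts only 5 were higher and 4 lower. PEBP1, which encodes an inhibitor of RAF, fell from 274.7 ± 2.04 to 93.6 ± 2.47 CPM (SD, n = 2), a log2 fold change of -1.55 (SE 0.0725, edgeR adjusted p = 8.74e-06). PTPN7, a tyrosine phosphatase of ERK in blood cells, fell from 249.2 ± 9.64 to 119.9 ± 3.37 CPM (SD, n = 2), a log2 fold change of -1.05 (edgeR adjusted p = 2.89e-05). PTPRR, a phosphatase of the same group, fell by 1.21 on the log2 scale, and RGS14, which binds RAS and RAF, by 1.35. ERRFI1, an inhibitor of the EGF receptor, rose by 1.11. CBL, a ubiquitin ligase for receptor kinases (0.76), LZTR1, an adaptor for the degradation of RAS proteins (0.61), and RASA1, a RAS GTPase-activating protein (0.55), also rose, while RASA3 fell (-0.36). In DMSO, PEBP1 had 181 and PTPN7 42.2 CPM per kb of exon, against 9.82 for SPRED2, the highest member.

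Effectors of ERK gave 4 higher and 5 lower of 13 tested genes, against 28.0% and 27.6% of all tested genes. Their median was -0.045, and with total counts only 5 were higher and 4 lower. The repressor ERF (-0.76), the kinase RPS6KA4 (-0.71) and SRF, the serum response factor (-0.51), fell, and the kinase MKNK2 rose (0.45). Genes known as outputs of the cascade moved in opposite directions, with 7 higher and 5 lower of 13 tested, against the same shares of all tested genes. With DESeq2, 5 were higher and 5 lower, against 22.1% and 26.1% of all tested genes. The median of the outputs was 0.41, which was 0.23 without DMSO replicate 1 and 0.62 with total counts only. The immediate early genes EGR1 (3.56), IER3 (1.38) and PHLDA1 (1.99) and the growth factor gene HBEGF (2.87) rose past both thresholds. HBEGF was near the floor in DMSO, with 4 and 6 counts against 39 and 36 with dBET1. CCND1, which encodes cyclin D1 (-1.46), FOSL1, which encodes the AP-1 protein FRA1 (-1.603), the ETS factor gene ETV4 (-1.20), the cytokine gene LIF (-2.54) and the potassium channel gene KCNN4 (-1.25) fell past both thresholds. The ETS factor genes ETV5 (0.41) and ETV1 (0.48) and the kinase gene SPHK1 (0.45) were called at smaller sizes.

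**Figure D4:**
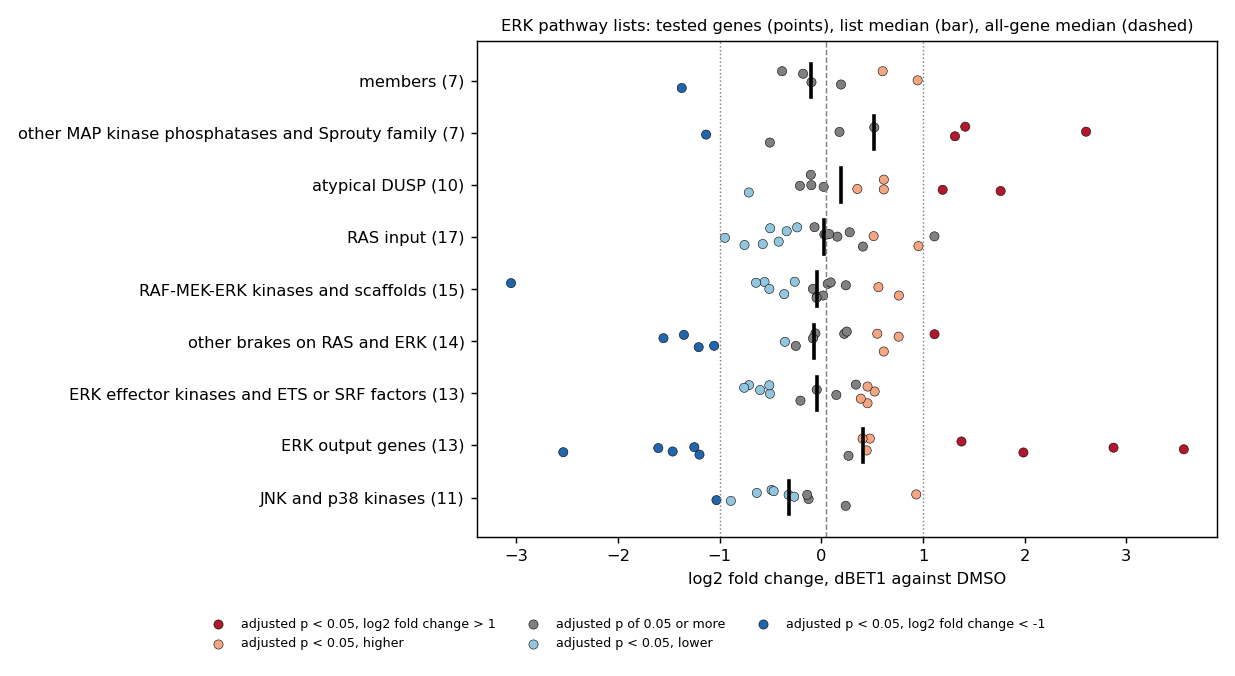
Log2 fold change of dBET1 against DMSO (horizontal axis) for the tested genes of the members and of 8 lists of related genes (rows, with the number tested). Short bars are list medians and the dashed line is the median of all tested genes, 0.048. The ERK outputs spread from -2.54 to 3.56, while the members spread from -1.37 to 0.95.

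The sister kinases of ERK and the atypical DUSP genes were also listed. Of 11 tested JNK and p38 kinase genes, 1 was higher and 7 were lower, against 28.0% and 27.6% of all tested genes. Their median was -0.32, and with total counts only 2 were higher and 3 lower. MAPK11, a p38 gene, fell past both thresholds (-1.03), MAP2K7 (-0.47), MAP2K3 (-0.49) and MAP3K5 (-0.89) fell, and the p38 gene MAPK13 rose (0.93). Of 10 tested atypical DUSP genes, most of whose products lack the MAP kinase binding domain, 5 were higher and 1 was lower, against the same shares. Their median was 0.19. DUSP18 (1.76) and DUSP19 (1.19) rose past both thresholds, DUSP22 (0.61), DUSP28 (0.61) and DUSP3 (0.35) rose, and DUSP12 fell (-0.71). DUSP13B had no entry under that name.

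The genes most like the leading members over the 4 libraries were found by the distance between log2 CPM values centred on each gene's mean, among 12419 tested coding genes. For DUSP1 they were FRMD5 (distance 0.0305), DNMT3A (0.0393) and RNF141 (0.0456), with log2 fold changes of 1.05, 0.95 and 0.93. For SPRY1 they were NR5A2 (0.0564), SH3PXD2A (0.0831) and NAAA (0.104), with log2 fold changes of -1.34, -1.32 and -1.29. With 4 libraries in 2 groups, this likeness rests on little more than the fold change and the gap between replicates.

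**Figure D5:**
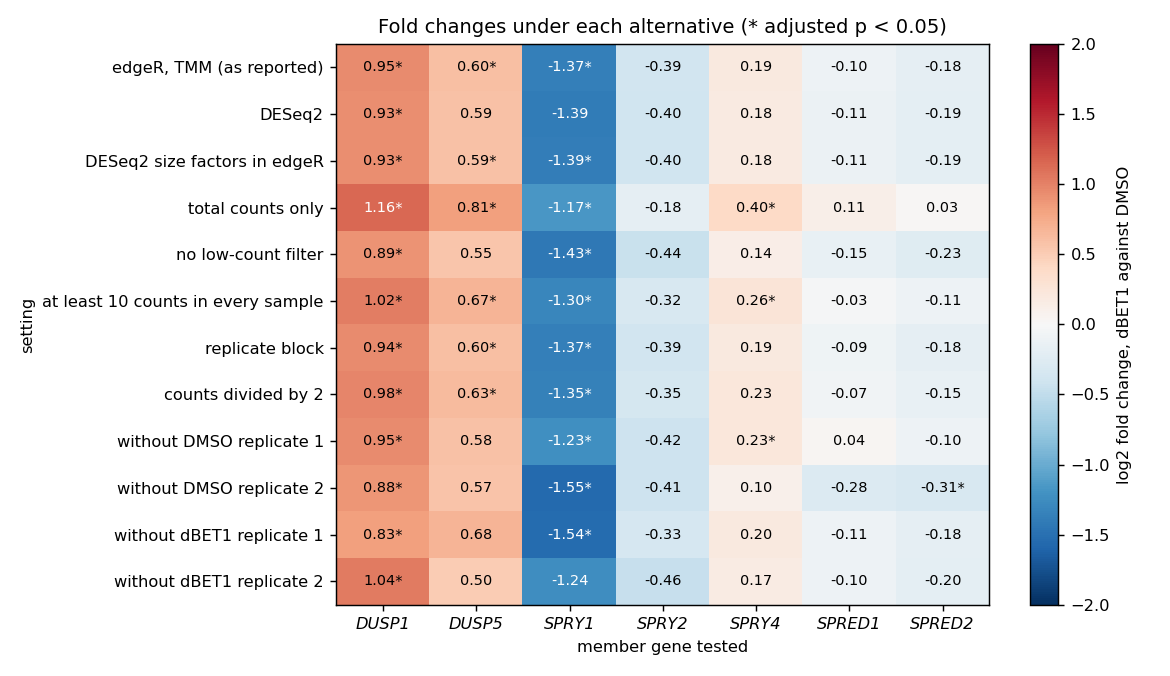
Log2 fold change of dBET1 against DMSO (colour and printed value) of the 7 tested members (columns) under the reported fit and 11 alternatives (rows), with an asterisk at an adjusted p under 0.05. DUSP1 keeps its asterisk in every row, DUSP5 loses it in 6 rows and SPRY1 in 2 rows.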

How the data were processed

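Total RNA of cells labelled NB4 was sequenced in 4 libraries. The labels name TRIzol and the paper RNeasy for extraction. The authors aligned paired-end reads to hg38 with HISAT2 2.2.0, ran StringTie, and deposited unnormalized counts per Ensembl gene. The step from abundances to counts and its strand setting are not given in the sources used here. Columns were matched to samples by treatment name and number, "NC" being DMSO. GENCODE 44 gave symbols, hg38 coordinates and exon lengths for 56105 of 64252 identifiers. Members and lists were chosen with earlier results of these data known.

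Low counts were removed with filterByExpr. After TMM normalization, groups were tested by the quasi-likelihood F test of edgeR 4.0.16 (R 4.3.3), with Benjamini-Hochberg adjustment over 17971 genes. The SE was the log2 fold change divided by the square root of F. The steps were run on simulated data with far fewer changed genes than these libraries, so that run does not test the normalization here. Its outcome is not given. Calls needed an adjusted p under 0.05, with or without an absolute log2 fold change above 1, the limit in the methods of the paper. The caption of its volcano plot gives another p limit. The paper counted more lower than higher genes, where the fit here had 3032 higher and 1535 lower past both thresholds. The reason for this difference was not tested. Alternatives were DESeq2 1.42.0, its size factors, total counts only, other filters, a replicate block, counts divided by 2 in case reads were counted in pairs, and each library left out. Genes named were all members, the other 7 family genes, list genes past both thresholds, at most 4 further called genes of each list by p, marker genes, and the 3 genes nearest to a leading member. Replicates differed by more than counting error (chi-square per degree of freedom 23.6 for DMSO and 8.14 for dBET1). Groups of 2 were too small for a test of outlying libraries. Some listed genes are not reported here.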

Additional observations from a re-analysis of the deposited data

How the results depend on the processing

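With 1 library left out, 1 group is a single library assumed to vary like the other pair. For DUSP5, SPRY1, SPRY4, SPRED1 and SPRED2, the ranges given for these fits are of the fold change. They do not mean that a call stayed the same. Of the calls of members, that of DUSP1 was kept under all 11 alternatives (0.83 to 1.16), and its log2 fold change passed 1 under 3 of them. The cause of each difference named here was not tested, beyond the scaling of total counts, which moved the median of all tested genes from 0.048 to 0.26. DUSP5 lost its call with DESeq2 (0.59) and with no low-count filter (0.55), and ranged from 0.50 to 0.68 with 1 library left out. SPRY1 lost it with DESeq2 (-1.39) and ranged from -1.55 to -1.23 with 1 library left out. SPRY4 gained a call with total counts only (0.40) and with at least 10 counts in every sample (0.26), and ranged from 0.10 to 0.23 with 1 library left out. SPRED1 turned positive with total counts only (0.11) and without DMSO replicate 1 (0.044), in a range of -0.28 to 0.044. SPRED2 turned positive with total counts only (0.029), and its range was -0.31 to -0.10.

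Members higher past both thresholds, 0 as reported, numbered 1 (DUSP1) with total counts only, with at least 10 counts in every sample and without dBET1 replicate 2 (0 to 1 with 1 library left out), and 2 with no limit on the fold change. Members lower past both thresholds, 1 as reported, numbered 0 with DESeq2 and without dBET1 replicate 2 (0 to 1). At an adjusted p alone, higher members numbered 1 with DESeq2 and with no low-count filter (1 to 2 with 1 library left out), and lower members 0 with DESeq2 (0 to 2). Of all genes, 1940 were higher past both thresholds with at least 10 counts in every sample and 952 lower with total counts only, where 6703 were higher and 3573 lower at an adjusted p. With 1 library left out, 3356 to 5118 genes were higher at an adjusted p, fewest without dBET1 replicate 2. Replicate numbers did not show pairing, since the deviations of same-numbered libraries had a correlation of -0.0075. With the replicate block, DUSP1 was 0.94, DUSP5 0.60 and SPRY1 -1.37, no member's call changed, and 4976 genes were higher and 4897 lower.

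With total counts only, list medians were 0.73 for the other family genes, 0.40 for atypical DUSP, 0.24 for RAS input, 0.16 for the kinases and scaffolds, 0.14 for other brakes, 0.16 for effectors, 0.62 for outputs and -0.11 for JNK and p38. Under that scaling, RAS input had 5 higher and 3 lower genes, the kinases and scaffolds 4 higher, and JNK and p38 2 higher and 3 lower. With no low-count filter, the medians were 0.30 for atypical DUSP and -0.18 for effectors, and higher genes numbered 3 for atypical DUSP, 1 for RAS input, 1 for the kinases and scaffolds and 4 for outputs. With at least 10 counts in every sample, the medians were 0.26 for atypical DUSP, 0.026 for the kinases and scaffolds and 0.00063 for other brakes, and higher genes numbered 4 for RAS input and 2 for JNK and p38. With 1 library left out, medians ran from 0.38 to 0.63 for the other family genes, -0.067 to 0.12 for RAS input, -0.18 to -0.075 for the kinases and scaffolds, -0.17 to -0.011 for other brakes, -0.18 to -0.11 for effectors and 0.23 to 0.40 for outputs. Higher genes then numbered 2 to 5 for atypical DUSP, 1 to 5 for RAS input, 2 to 4 for effectors, 3 to 6 for outputs and 0 to 2 for JNK and p38, and lower genes 3 to 7 for RAS input and 2 to 7 for JNK and p38. The counts were lowest without a dBET1 library, apart from higher RAS input genes, which were also 1 without DMSO replicate 2.

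Per kb of the longest transcript in place of all exons, the DMSO and dBET1 levels were 0.657 and 0.253 for SPRY1, 4.77 and 3.65 for SPRY2, 8.06 and 9.21 for SPRY4 and 12.0 and 10.6 for SPRED2, with 2.0 for DUSP5 in DMSO and 2.50 for SPRED1 with dBET1. Depth limits DUSP2, DUSP4 and DUSP6, which had 5 counts or fewer in each library.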
